A study of Mus musculus with 6 samples.

Results

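The 44 genes described here belong to the unfolded protein response and to the response to amino acid shortage. They were taken from a fixed list of symbols: every probe set annotated to exactly 1 of these genes was used, which gave 94 of the 22690 probe sets on the arrays. All 44 genes were found and all passed the filter on dim probe sets, among 9249 genes that did. Expression had been measured in 6 tumours, 1 array each: 3 grown from control 4T1 cells and 3 from 4T1 cells with Bptf knocked down (Bptf KD) by short hairpin RNAs delivered with a retrovirus (MMLV). 4T1 is a mouse mammary carcinoma line, and Bptf is the largest subunit of the chromatin remodelling complex NURF. Both groups were started from 10000 cells placed in the fourth fat pad of NSG mice (given as Ifrg2r -/- in the labels), a strain without T cells, B cells or natural killer cells, and both were collected on day 21. Necrotic tissue, where present, had been cut away before RNA was extracted. The sources used here do not say what the control cells carried, how old the mice were or whether the KD cells were 1 clone.

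When unfolded proteins build up in the endoplasmic reticulum (ER), the sensors Ern1 (IRE1), Atf6 and Eif2ak3 (PERK) are activated. Atf6 and the spliced form of Xbp1 then raise chaperones and the factors of ER-associated degradation (ERAD), which returns misfolded proteins to the cytosol for destruction. PERK, and the kinase Gcn2 when amino acids run short, phosphorylate eIF2, and this lets Atf4 be translated. Atf4 is known to raise enzymes of amino acid synthesis, amino acid transporters and several aminoacyl-tRNA synthetases. Much of the pathway is controlled by splicing, cleavage and translation, which an mRNA level does not show.

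The promoters of the members differ by arm in the stress elements they hold. The list names genes known as targets of these pathways, so a split of this kind was built into it and tests nothing. RefSeq promoters (assembly GRCm38.p6, 250 bases before to 50 after the annotated start) were matched by symbol for 38 of the 44 members. The ER stress element ERSE, read as CCAAT and CCACG with 9 bases between them on either strand, was found in 8 of 16 genes of the ER arm (chaperones, folding enzymes and ERAD) and in 0 of 10 genes of the amino acid and synthetase arm, against 0.137% of 27025 genes with a promoter in the table. The CARE element that Atf4 can bind with C/EBP partners, read as TGATGNAA on either strand, was found in 4 of 10 genes of the amino acid and synthetase arm and in 1 of 16 of the ER arm, against 4.51% of all. The short ERSE-II form, ATTGG and CCACG with 1 base between them, was found in Herpud1 and Dnajb11, and TGACGTGG, an element bound by Xbp1, in none of the 38. These are matches of letters and not measured sites.

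The ERSE matches are shown because they carry this split between the arms. Each is turned so that the motif reads 5′ to 3′, with 4 flanking bases on each side and the fixed letters of the motif in capitals.
Hspa5: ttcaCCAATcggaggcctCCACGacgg
Hsp90b1: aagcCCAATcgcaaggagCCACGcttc
Hsp90b1: ctcaCCAATcgtgcctcaCCACGcact
Calr: tgggCCAATgagggtcgaCCACGcgtt
Canx: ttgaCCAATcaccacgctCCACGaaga
Pdia6: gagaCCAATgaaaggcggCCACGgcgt
Dnajc3: acaaCCAATcagcgccaaCCACGaccc
Creld2: tggaCCAATtgaggctcgCCACGagaa
Syvn1: gcaaCCAATcggcggtagCCACGggaa

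The CARE matches of the members are shown in the same way, for comparison with the levels of these genes given further on. The second match of Aars and that of Trib3 lie after the annotated start.
Asns: cacaTGATGaAActtc
Gars: tgcaTGATGaAAtagc
Aars: cggcTGATGcAAtgct
Aars: gctcTGATGaAAagtg
Tars: cagcTGATGcAAcggg
Chac1: ggagTGATGcAAcggc
Trib3: cggcTGATGtAAacct
Vldlr: gcgcTGATGcAActat
Herpud1: gggcTGATGcAAcccg

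The 250 bases before the start of Hspa5 and of Asns are printed as the textbook gene of each arm, with motif letters in capitals as above. The Hspa5 match lies 65 to 47 bases before the start, and the Asns match 23 to 16 bases before it.
Hspa5 (chr2:34771840-34772089, plus strand): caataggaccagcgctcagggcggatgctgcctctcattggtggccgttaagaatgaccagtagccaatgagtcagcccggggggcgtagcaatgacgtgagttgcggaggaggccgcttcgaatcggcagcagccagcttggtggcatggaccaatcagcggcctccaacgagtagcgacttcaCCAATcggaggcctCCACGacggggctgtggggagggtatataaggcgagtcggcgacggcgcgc
Asns (chr6:7693210-7693459, minus strand): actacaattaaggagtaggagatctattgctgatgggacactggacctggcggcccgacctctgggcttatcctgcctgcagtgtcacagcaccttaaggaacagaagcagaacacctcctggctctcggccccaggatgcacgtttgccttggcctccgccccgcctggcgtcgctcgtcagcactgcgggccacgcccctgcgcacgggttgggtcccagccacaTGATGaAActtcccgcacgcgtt

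The values are log2 expression values, so that a difference of 1 is a 2-fold change, and differences are Bptf KD minus control. Median log2 values were 7.60 to 7.70 on the 6 arrays. Bptf, the target of the hairpins, measured 10.69, 9.77 and 10.59 in controls 1, 2 and 3, against 9.60, 9.56 and 9.99 in the KD tumours (difference -0.63, SE 0.27, limma adjusted p = 0.371). The second control had less Bptf than every KD tumour on 3 of the 4 Bptf probe sets, so it is named here as the tumour labelled control 2, and all directions count it as a control. It differed by 2-fold or more from the mean of the other controls in 8.67% of genes, where the other 5 tumours differed from theirs in 0.443% to 2.51%. Its actin control probe sets also had the widest gap between the 3′ and 5′ ends (1.23, against 0.76 to 1.05). The same gap of the Gapdh control probe sets was near 0 in every tumour (0.06 in control 2, against -0.08 to 0.04). The 9 markers of tumour epithelium were all above the dim level (6.09), with list means of 10.15 to 11.08 in controls and 11.26 to 11.32 in KD tumours. Of the other cells in the tissue, adipocyte markers had list means of 10.19 to 10.92 in controls and 7.32 to 8.22 in KD tumours, with 10 of 10 lower, and fibroblast and matrix markers 11.32 to 11.52 and 10.16 to 10.45, with 14 of 14 lower. In whole tumours, fewer cells of a type and less RNA per cell cannot be told apart.

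No member of the pathway passed the test between Bptf KD and control tumours. By limma, with p adjusted over all 9249 genes, 0 of the 44 were called at 0.05, against 0.811% of all genes. Before adjustment, 6 of 44 had a limma p under 0.05, 3 higher and 3 lower, which is 13.6% against 13.5% of all genes (7.65% higher and 5.82% lower). The groups did not overlap in 10 members, or 22.7% against 20% of all genes: 6 were higher and 4 lower in KD tumours, against 11.8% of all genes higher and 8.17% lower. An exact two-sided permutation test of 3 tumours against 3 cannot go below p = 0.1, the value of these 10. These shares are near those of all genes. With arrays weighted by their spread, limma called 9 members, in a fit that called 18.2% of all genes and gave a convergence warning.

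**Figure D1:**
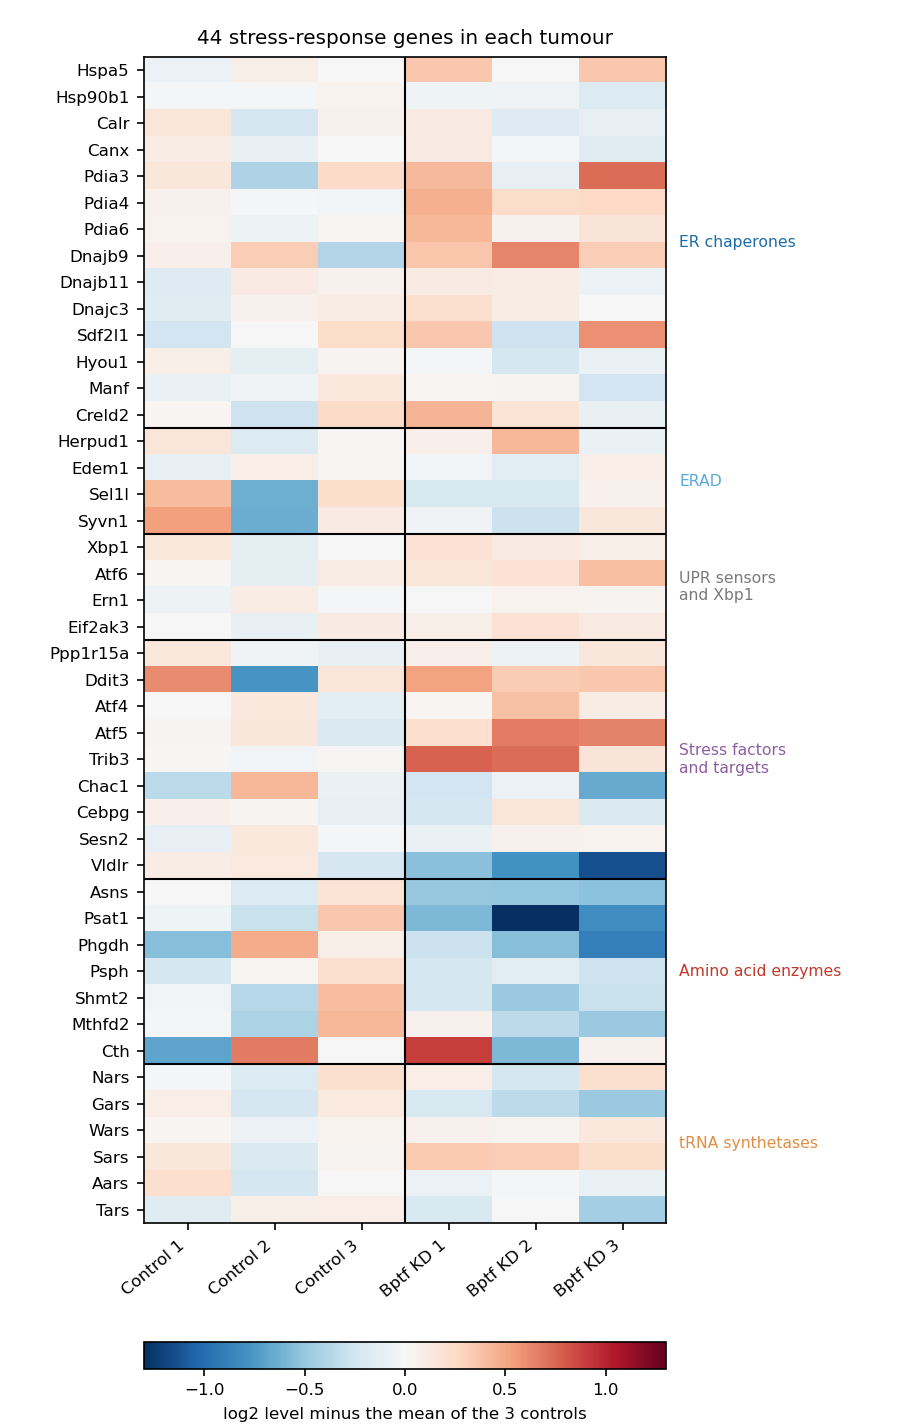
Each cell is the log2 level of a gene (rows, grouped by role) in a tumour (columns) minus the mean of the 3 controls, in log2 units. The rows of Asns, Psat1 and Vldlr are below the control mean in all 3 Bptf KD tumours, while those of Atf5 and Trib3 are above it, and Sel1l, Syvn1 and Ddit3 are low in control 2.

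The ER chaperones and folding enzymes differed little between the groups, and most of them lay slightly higher in KD tumours. Of 14 genes 9 had positive differences, which is 64.3% against 59.6% of all genes tested, with a median of 0.14 against 0.06 over all genes. Limma called 0 of them, and 1 (Pdia4) had an unadjusted p under 0.05, which is 7.14% against 13.5% of all genes. Differences ran from -0.12 for Hyou1, a large Hsp70-like chaperone, to 0.44 for Dnajb9, a co-chaperone of BiP.

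Hspa5 (BiP), the central chaperone of the ER, had levels of 13.42, 13.57 and 13.49 in the controls and of 13.84, 13.50 and 13.84 in the KD tumours. KD tumours 1 and 3 were above every control, and KD 2 lay between the controls, so the groups overlapped. The difference was 0.23 (SE 0.14, limma adjusted p = 0.546), and its 95% interval of -0.10 to 0.56 leaves room for a change of up to 0.56. A second Hspa5 probe set gave 0.25.

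Dnajb9, induced through Xbp1 and Atf6, had levels of 10.82, 11.07 and 10.37 in the controls and of 11.11, 11.39 and 11.07 in the KD tumours. The groups met at 11.07, a value shared by the tumour labelled control 2 and KD 3. The difference was 0.44 (SE 0.20, limma adjusted p = 0.421). Pdia4, a disulfide isomerase, was at 10.40, 10.32 and 10.31 against 10.81, 10.58 and 10.60. All 3 KD tumours were above all controls, by a difference of 0.32 (SE 0.12, limma adjusted p = 0.328), and it was singled out after its values were seen.

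The other disulfide isomerases were Pdia6, with a difference of 0.22 and groups that did not overlap, and Pdia3 (ERp57), with 0.35 and an SD of 0.42 among KD tumours. The glycoprotein chaperones calnexin (Canx) and calreticulin (Calr), partners of Pdia3, differed by -0.02 and -0.06. Hsp90b1 (GRP94), the ER form of Hsp90, differed by -0.09. Its levels of 13.57, 13.57 and 13.64 in controls and 13.54, 13.55 and 13.42 in KD tumours did not overlap. KD 2 lay just below the lowest controls, and a second Hsp90b1 probe set gave -0.10 with groups that overlapped. The BiP co-chaperones Dnajb11 and Dnajc3 differed by 0.04 and 0.10, Sdf2l1, which works with Dnajb11, by 0.22, and the ER stress-induced secreted proteins Manf and Creld2 by -0.06 and 0.18. Signs were thus mixed among chaperones that work together. Probe sets of a gene that were above the dim level gave differences from -0.07 to 0.21 for Canx, from -0.06 to 0.03 for Calr and from 0.01 to 0.47 for Dnajc3. The 8 members with an ERSE match were split evenly, 4 positive and 4 negative, with a median of 0.04.

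The ERAD genes did not differ between groups beyond the spread of the controls. Herpud1, which organises the degradation complex at the ER membrane, had levels of 9.85, 9.51 and 9.71 in the controls and of 9.76, 10.12 and 9.60 in the KD tumours. Its groups overlapped, with a difference of 0.14 (SE 0.17, limma adjusted p = 0.800). Sel1l and Syvn1 (Hrd1), adaptor and ubiquitin ligase of the same complex, were low in 1 control. Sel1l was at 7.36 in the tumour labelled control 2, against 8.40 and 8.22 in the other controls and 7.79 to 8.05 in KD tumours. Syvn1 was at 7.60 there, against 8.78 and 8.35 and against 7.96 to 8.39 in KD tumours. In both, the control range therefore spanned all 3 KD tumours. The differences were -0.11 for Sel1l and -0.06 for Syvn1 with all tumours, and -0.43 and -0.38 without that control (limma adjusted p = 0.103 and 0.222; over all alternatives 0.0938 to 1 for Sel1l and 0.222 to 0.995 for Syvn1). Edem1, which draws misfolded glycoproteins into degradation, differed by -0.03 or 0.15 depending on the probe set, and Sel1l by -0.11 to 0.12 over 3 probe sets above the dim level.

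The sensors and Xbp1 had small positive differences, 4 of 4 where 59.6% of all genes were positive. On the brightest probe set of each gene, only Atf6 had groups that did not overlap. Limma called 0 of the 4, and 0 had an unadjusted p under 0.05. The mean level of the 4 genes was 9.25 to 9.35 in controls and 9.42 to 9.46 in KD tumours. Atf6 had levels of 8.43, 8.30 and 8.51 in the controls and of 8.57, 8.60 and 8.80 in the KD tumours. These groups did not overlap, with a difference of 0.24 (SE 0.13, limma adjusted p = 0.477). Xbp1 was at 12.80, 12.54 and 12.66 against 12.85, 12.78 and 12.74, a difference of 0.12 (SE 0.12, limma adjusted p = 0.729). Its groups overlapped through control 1, and spliced and unspliced Xbp1 were not read apart. The 4 Xbp1 probe sets gave 0.11 to 0.20. On the one with 0.20 the groups did not overlap, at 11.90, 11.65 and 11.86 against 12.06, 12.01 and 11.94. Eif2ak3 differed by 0.13, with KD 1 below control 3, and Ern1 by 0.03, with all KD tumours inside the control range.

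**Figure D2:**
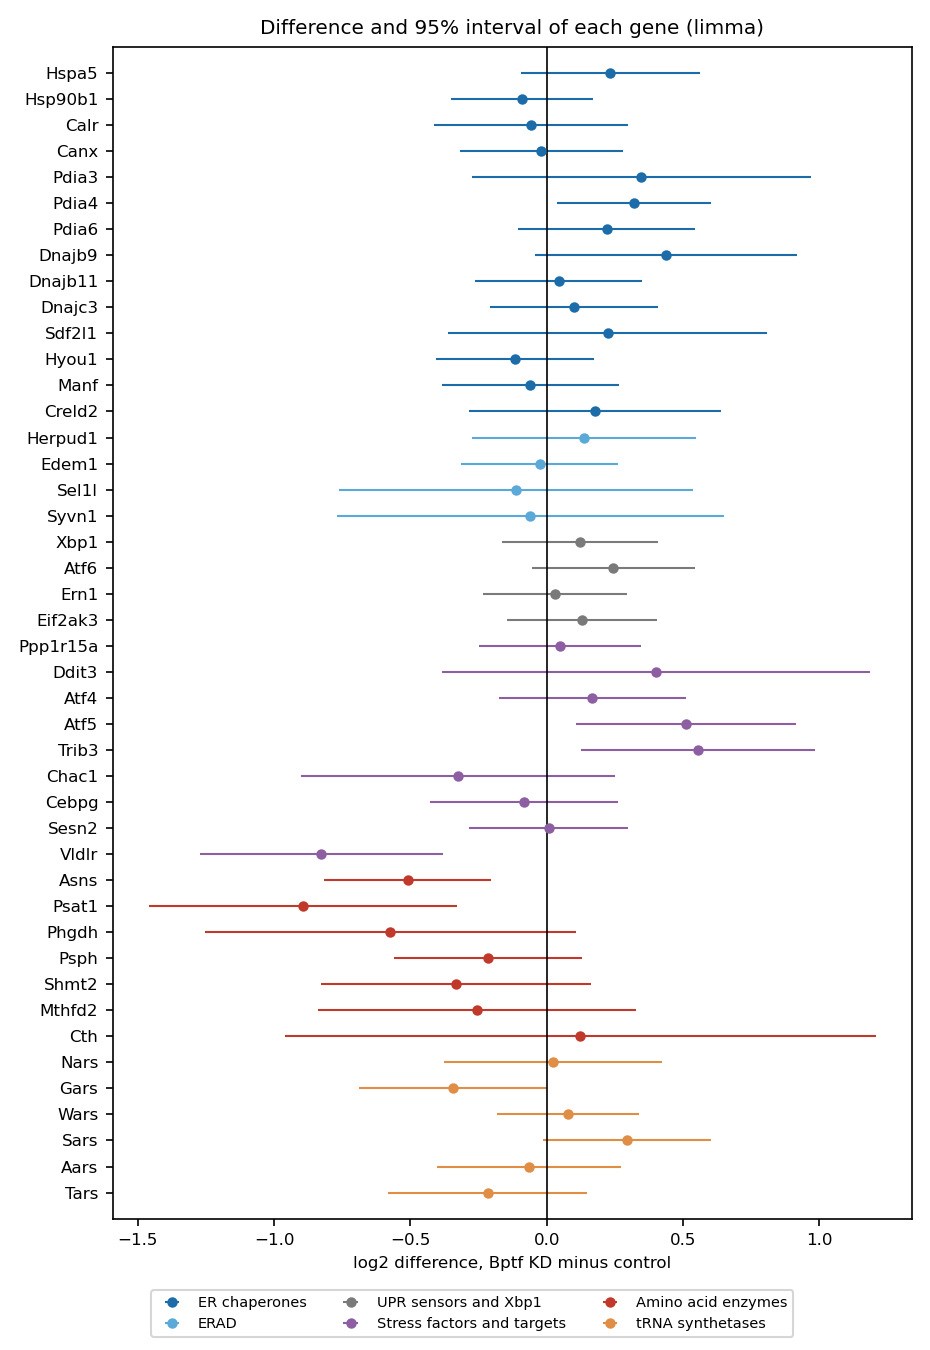
Points are log2 differences (Bptf KD minus control) of each gene on the x axis, and bars their 95% intervals from limma with 3 tumours in each group. The intervals of Pdia4, Atf5, Trib3, Vldlr, Asns and Psat1 do not include 0, before any adjustment for the 9249 genes tested.

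Among the stress transcription factors and their targets, differences had both signs. Of 9 genes 6 were positive (66.7%, against 59.6% of all genes) and 3 negative (median 0.05). Limma called 0, and 3 (33.3%, against 13.5% of all genes) had a p under 0.05 before adjustment: Atf5 and Trib3 higher and Vldlr lower. Atf4, the central factor of the response, had levels of 11.87, 12.01 and 11.74 in the controls and of 11.90, 12.25 and 11.97 in the KD tumours. The tumour labelled control 2 lay above KD 1 and KD 3, and the difference was 0.17 (SE 0.14, limma adjusted p = 0.693). A second Atf4 probe set above the dim level gave the opposite sign, -0.15, so that no direction can be given for Atf4 mRNA.

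Ddit3 (CHOP), a proapoptotic factor downstream of Atf4, was at 9.0, 7.62 and 8.55 in the controls and at 8.91, 8.72 and 8.74 in the KD tumours. The KD tumours lay within the control range, and the low value of the tumour labelled control 2 set most of the difference of 0.40 (SE 0.33, limma adjusted p = 0.678), which was 0.015 without it (limma adjusted p = 0.964; 0.327 to 0.964 over all alternatives).

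Atf5 and Trib3 were the members highest in KD tumours relative to controls. Atf5, a factor of the Atf4 family, was at 8.57, 8.68 and 8.35 in controls and at 8.75, 9.20 and 9.18 in KD tumours. KD 1 was only just above the controls, and the difference was 0.51, or 1.42-fold (SE 0.17, limma adjusted p = 0.268). Trib3, a pseudokinase that restrains Atf4 and Ddit3, was nearly constant in controls, at 8.33, 8.28 and 8.33, and was at 9.08, 9.04 and 8.48 in KD tumours. All KD tumours were above all controls, KD 3 least, with a difference of 0.55, or 1.47-fold (SE 0.18, limma adjusted p = 0.262). The second Trib3 probe set gave 0.42. Both genes were singled out here after their values were seen.

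Vldlr, a lipoprotein receptor that Atf4 can raise under ER stress, went the other way. Its levels were 8.27, 8.30 and 7.96 in controls and 7.63, 7.39 and 7.03 in KD tumours, without overlap. The difference was -0.83, a level 0.564 times that of the controls (SE 0.19, limma adjusted p = 0.126), and -1.08 on the other probe set above the dim level. Vldlr is also known from fat and muscle, where it helps to take up triglyceride-rich lipoproteins. The adipocyte markers, like Vldlr, were all lower in KD tumours, as given above. Within the KD group their list means were 7.32, 8.22 and 7.81 in KD 1, 2 and 3, lowest where Vldlr was highest. The part of the adipocyte markers in this result was not tested. The skeletal muscle list overlapped between groups, at 8.45, 10.97 and 6.35 in controls and 9.01, 6.21 and 7.225 in KD tumours. Chac1, which degrades glutathione and is another target of Atf4, differed by -0.33 and was highest in the tumour labelled control 2 (8.26, against 7.17 to 7.75 in the other 5). The phosphatase subunit Ppp1r15a (GADD34), which ends eIF2 phosphorylation, differed by 0.05, Cebpg, a partner of Atf4, by -0.08 (0.09 at most over its 3 probe sets) and the stress-induced mTORC1 inhibitor Sesn2 by 0.01.

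**Figure D3:**
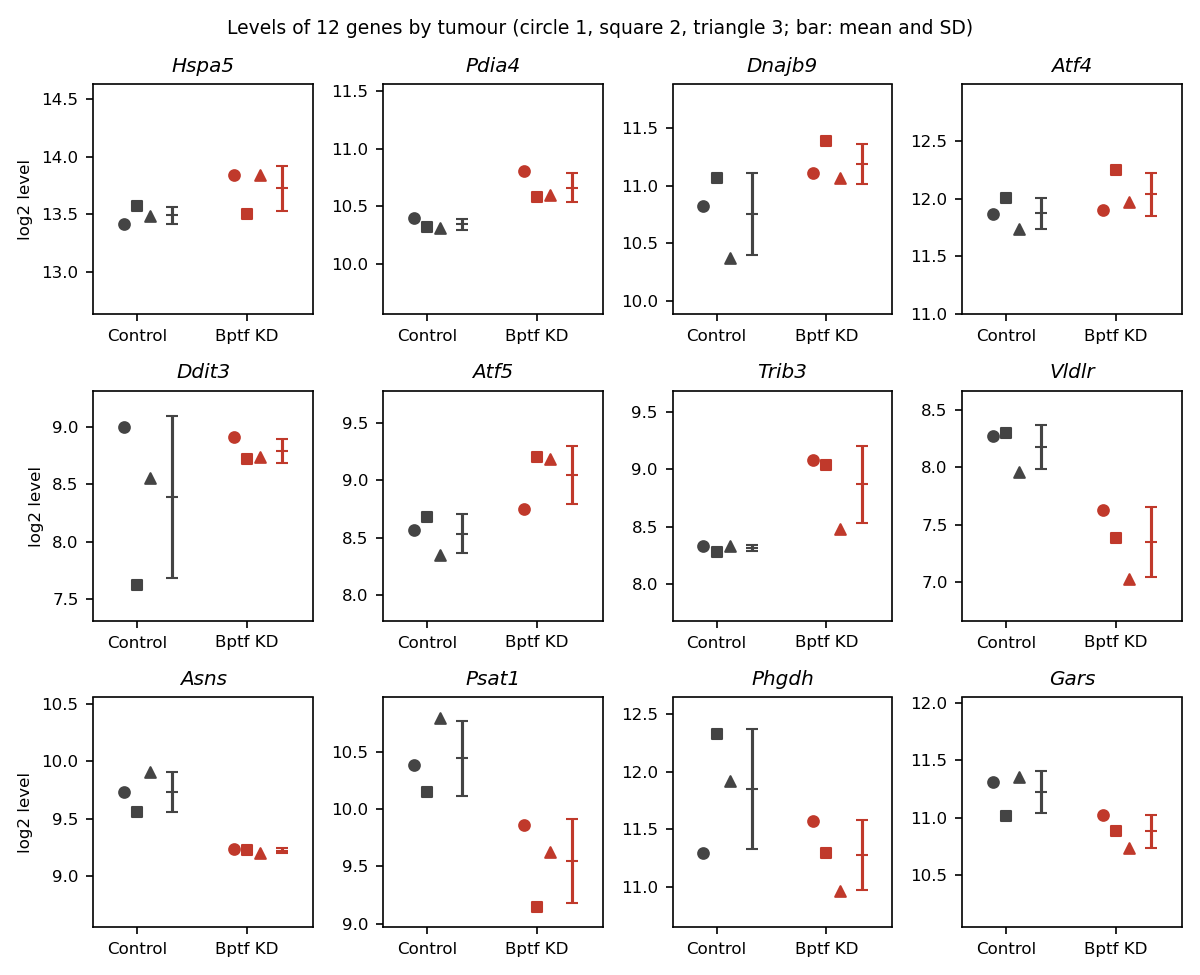
Log2 levels (y axis, a span of 2 units in every panel) of 12 members in the 3 control (grey) and 3 Bptf KD (red) tumours, with the mean and SD of each group beside the points. The groups are apart for Pdia4, Atf5, Trib3, Vldlr, Asns and Psat1 and overlap for the other genes, with control 2 as the lowest point of Ddit3.

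Most enzymes of amino acid synthesis had lower values in KD tumours, Psat1 and Asns by most relative to their error, and none passed the test. Of 7 genes 6 were negative, which is 85.7% against 39.8% of all genes, with a median of -0.33. Limma called 0. Before adjustment 2 (Asns and Psat1) had a limma p under 0.05, which is 28.6% against 13.5% of all genes. Relative to the control mean, the median of the 7 genes lay between -0.17 and 0.21 in the controls and between -0.50 and -0.23 in the KD tumours. The mean level of the 7 genes overlapped, at 9.61, 9.83 and 10.08 in the controls and 9.72, 9.28 and 9.38 in the KD tumours. The median difference of the list was -0.13 without control 3, in which most of these enzymes were highest.

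Asns, asparagine synthetase, had levels of 9.73, 9.56 and 9.91 in controls and of 9.24, 9.23 and 9.20 in KD tumours. The KD tumours were almost equal to each other (SD 0.02) and all below the controls. The difference was -0.51, a level 0.702 times that of the controls (SE 0.13, limma adjusted p = 0.161), and the second probe set gave -0.63. Asns was the one member that passed over all genes without the tumour labelled control 2 (difference -0.60, limma adjusted p = 0.0381; 0.00528 to 0.476 over all alternatives), in a fit that called 4.45% of all genes. That tumour had the lowest Asns of the 3 controls.

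Serine synthesis runs from Phgdh through Psat1 to Psph, and Shmt2 and Mthfd2 then pass its carbon to mitochondrial folate. Psat1 had levels of 10.38, 10.15 and 10.79 in controls and of 9.86, 9.15 and 9.63 in KD tumours. The groups did not overlap on either of its 2 probe sets. The difference was -0.89, a level 0.538 times that of the controls (SE 0.24, limma adjusted p = 0.181).

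Phgdh, the first enzyme of the path, was at 11.29, 12.33 and 11.92 in controls and at 11.57, 11.29 and 10.96 in KD tumours. Control 1 lay at the level of KD 2, so that the groups overlapped, with a difference of -0.57 (SE 0.29, limma adjusted p = 0.456). All 4 Phgdh probe sets bear the suffix _x_at, which marks probes that can also bind other transcripts. Those above the dim level gave -0.60 to -0.57. The brightest probe sets of Trib3, Vldlr, Shmt2 and Wars, used for their values here, bear the same suffix. Psph differed by -0.22, Shmt2 by -0.33 and Mthfd2 by -0.26, each with overlapping groups and with the highest level in control 3. Without that control they were at -0.11, -0.13 and -0.04.

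Cth, which makes cysteine from cystathionine, did not share this pattern. Its levels were 7.86, 9.22 and 8.55 in controls and 9.44, 7.96 and 8.60 in KD tumours, so that each group spanned more than 1 log2 unit. The difference of 0.12 (SE 0.46, limma adjusted p = 0.939) is small beside that spread.

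Cell cycle genes moved with the amino acid enzymes. All 15 that were measured had negative differences (median -0.50), with list means of 10.49 to 10.97 in controls and 10.02 to 10.33 in KD tumours. In both groups of genes control 3 was the highest tumour, and KD 2 and KD 3 were lower than KD 1. The adipocyte and fibroblast markers were lower in KD tumours too, and epithelial markers higher (8 of 9 positive). The part of these shifts in the amino acid result was not tested.

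The tRNA synthetases of the list did not move together. They charge tRNAs with their amino acids, and 3 of 6 were positive and 3 negative (median -0.02). Limma called 0 of the 6, with 0 under 0.05 before adjustment. Gars, for glycine, had levels of 11.31, 11.01 and 11.35 in controls and of 11.02, 10.88 and 10.74 in KD tumours. The tumour labelled control 2 and KD 1 were nearly equal, and the difference was -0.34 (SE 0.15, limma adjusted p = 0.375), or -0.45 without that control (limma adjusted p = 0.0821; 0.0274 to 0.786 over all alternatives). Tars, for threonine, was at 11.07, 11.30 and 11.31 against 11.03, 11.22 and 10.78, with a difference of -0.22 (SE 0.15, limma adjusted p = 0.627). Sars, for serine, was higher in all KD tumours (10.45 to 10.56) than in the controls (10.04 to 10.37), with a difference of 0.29 (limma adjusted p = 0.399). Aars, for alanine, differed by -0.07, Nars, for asparagine, by 0.02 (-0.09 on its other probe set) and Wars, for tryptophan, by 0.08. Of the 8 members with a CARE match 6 were negative and 2 positive, from -0.83 for Vldlr to 0.55 for Trib3.

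Set side by side, the 18 ER genes had a median difference of 0.07, with 10 positive (55.6%, against 59.6% of all genes). The 13 amino acid and synthetase genes had one of -0.22, with 9 negative (69.2%, against 39.8% of all genes). Over all genes the median was 0.06. Within each tumour, the ER median relative to the control mean minus that of the other arm was 0.08, 0.12 and -0.08 in the controls and 0.31, 0.33 and 0.31 in the KD tumours. The 3 KD tumours were close together and above all controls on this measure. By the mean level of each arm, the same gap was 1.00, 0.80 and 0.74 in the controls. It was 1.09, 1.18 and 1.22 in the KD tumours, so that KD 1 lay only just above control 1. Since the members share the same 6 tumours and were listed with earlier results known, the gap of 0.29 between the arm medians is given with no test. Within the second arm the median was -0.33 for the amino acid enzymes and -0.02 for the synthetases. With the 9 stress factors counted in the second arm the gap was 0.15.

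**Figure D4:**
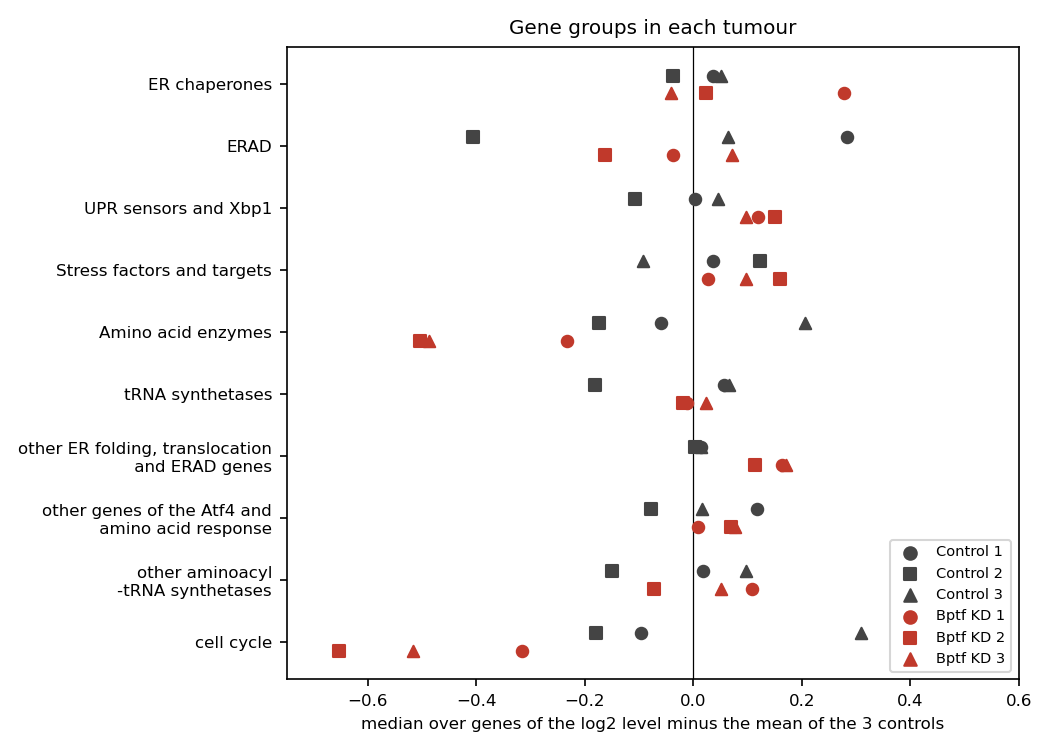
Points are tumours (grey control, red Bptf KD), and the x axis is the median over the genes of a group of the log2 level minus the control mean. The amino acid enzymes and the cell cycle genes lie to the left in all 3 Bptf KD tumours, while the sensors and the other ER genes lie slightly to the right.

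Other genes of the pathway, outside the 44, came from 3 lists. Of 45 further genes of ER folding, translocation and ERAD, 37 had positive differences, which is 82.2% against 59.6% of all genes, with a median of 0.13. Without the tumour labelled control 2 there were 31 positive and 14 negative, where 56% of all genes were positive. Limma called 0 of them. An unadjusted limma p under 0.05 was found for 3 higher and 1 lower, which is 8.89% against 13.5% of all genes. Relative to the control mean, the median of this list lay between 0.00 and 0.01 in the controls and between 0.11 and 0.17 in the KD tumours. Over all 9249 genes this measure was already 0.05, 0.06 and 0.06 in KD 1, 2 and 3. By the mean level of the list, controls 1, 2 and 3 stood at 10.56, 10.42 and 10.57 (SD 0.08). KD 1, 2 and 3 stood at 10.67, 10.63 and 10.67, so that KD 2 was only slightly above controls 1 and 3. In this list the smallest p belonged to Sil1 (0.36), Creb3l1 (-0.53) and Dad1 (0.45), with limma adjusted p of 0.250, 0.289 and 0.335. Sil1 is an exchange factor of BiP, and Dad1 a subunit of the oligosaccharyltransferase. Creb3l1 is a membrane-bound transcription factor known from collagen-secreting cells. Without the tumour labelled control 2, 1 of the 45 passed higher and 1 lower, in a fit that called 4.45% of all genes. The lower one was Creb3l1 (-0.71, limma adjusted p = 0.0364, and 0.00607 to 0.637 over all alternatives). The higher one was Derl2, a channel protein of ERAD (0.58, limma adjusted p = 0.0407, and 0.0246 to 0.911 over all alternatives). With all tumours Derl2 differed by 0.28 (limma adjusted p = 0.701). The tumour labelled control 2 (11.74) lay above every KD tumour (11.37 to 11.50) in Derl2. Creb3l1 was lower together with the fibroblast and matrix markers given above, whose part in this result was not tested.

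Of 26 further genes of the Atf4 response, 16 were positive and 10 negative (median 0.04), and limma called 0. Without the tumour labelled control 2 there were 12 positive and 14 negative (median -0.04). Before adjustment, 3 higher and 3 lower had a limma p under 0.05, which is 23.1% against 13.5% of all genes. Nupr1, a small stress-induced chromatin protein, was at 10.50 ± 0.17 in controls and 11.34 ± 0.15 in KD tumours (SD, n = 3), a difference of 0.83 (limma adjusted p = 0.0634). Slc1a5, the glutamine transporter ASCT2, was at 8.33 ± 0.09 in controls and 7.60 ± 0.14 in KD tumours (SD, n = 3), a difference of -0.73 (limma adjusted p = 0.0634). Gpt2, the mitochondrial alanine transaminase, was at 8.49 ± 0.47 in controls and 7.62 ± 0.09 in KD tumours (SD, n = 3), a difference of -0.86 (limma adjusted p = 0.185). None of the 3 had overlapping groups. All 3 passed without the tumour labelled control 2, in a fit that called 4.45% of all genes. Their limma adjusted p were then 0.0381, 0.0312 and 0.0466. The ranges over all alternatives were 0.00418 to 0.243, 0.00456 to 0.267 and 0.00971 to 0.533. As among the members, then, genes tied to Atf4 lay on both sides of the controls. Of 22 further synthetases and their partners, 13 were positive and 9 negative (median 0.05), or 11 and 11 without the tumour labelled control 2 (median -0.02). Limma called 0 of the 22, with 0 under 0.05 before adjustment. Without that tumour 1 of the 22 passed, Vars, for valine, in a fit that called 4.45% of all genes. Its difference there was -0.70 (limma adjusted p = 0.0495, and 0.0246 to 0.976 over all alternatives). With all tumours Vars differed by -0.30 (limma adjusted p = 0.763). The tumour labelled control 2 (8.69) lay below every KD tumour (8.95 to 9.32) in Vars. The smallest p belonged to the mitochondrial enzymes Ears2 (0.29), Fars2 (0.21) and Tars2 (0.18).

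The tumour labelled control 2 bore on some members more than on others. It was 2-fold or more away from the other controls in 2 of the 44 members, Ddit3 (-1.16) and Cth (1.01), against 802 of 9249 genes. Leaving it out turned the sign of Edem1 and Nars, both near 0, and moved Sel1l, Syvn1, Ddit3 and Cth most. Markers of skeletal muscle had a list mean of 10.97 in this tumour, against 6.21 to 9.01 in the other 5, and keratinocyte markers one of 9.17 against 6.33 to 6.65. With muscle markers as a covariate, the differences were -0.28 for Sel1l, -0.18 for Syvn1, 0.25 for Ddit3 and 0.41 for Cth (limma adjusted p = 0.712 to 0.867), and the part of the keratinocyte markers was not tested. Plasma cells, which carry a strong Xbp1 program, are lacking in NSG mice: 5 of their 6 markers on the arrays were below the dim level. The remaining marker, Sdc1, was bright in every tumour (11.50 to 12.14).

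**Figure D5:**
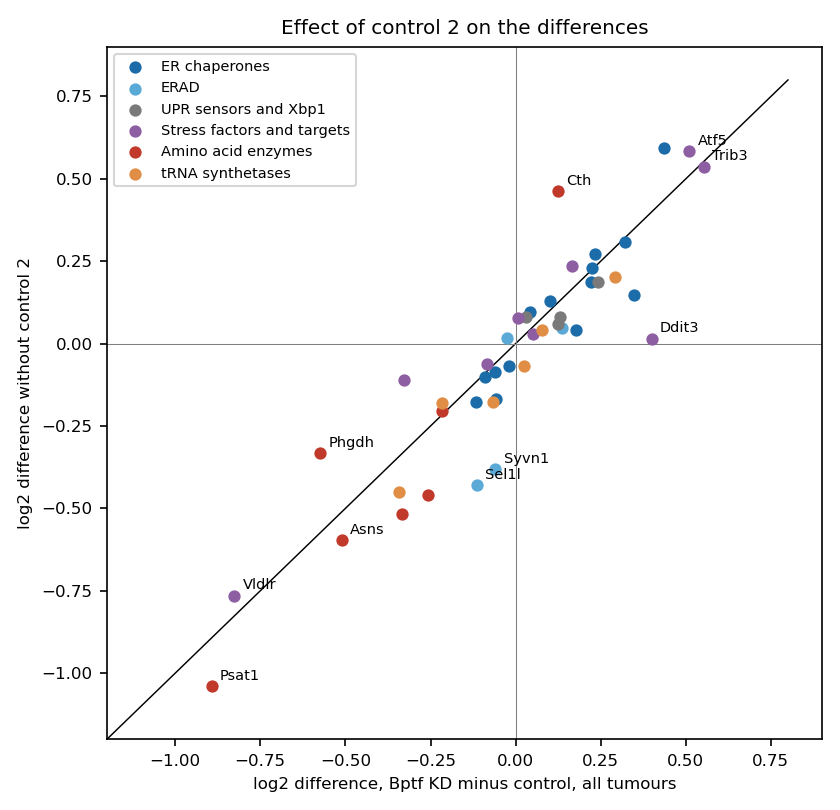
Each point is a member, with its log2 difference (Bptf KD minus control) over all 6 tumours on the x axis and without control 2 on the y axis, and the line marks equality. Sel1l and Syvn1 lie below the line, Cth and Phgdh above it, and Ddit3 falls from 0.40 to 0.015, while Psat1, Asns, Vldlr, Atf5 and Trib3 keep to the line more closely.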

How the data were processed

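The deposited values are log2 expression values per probe set made by the authors with RMA, per the submitters' processing notes (version not stated there). The log base was taken as 2, RMA's own scale, from the range of 2.98 to 15.17. Probe sets were named from GEO's platform annotation where it gave 1 gene. Each gene was represented by its brightest probe set on average, and probe sets in the lowest 30% by mean (below 6.09) and the manufacturer's controls were left out. RMA gives no detection call, and the number of arrays limits the precision. Groups came from the sample titles. The groups were compared with limma 3.58.1 under R 4.3.3 (lmFit and eBayes, no covariate), with Benjamini-Hochberg adjustment over 9249 genes and a threshold of 0.05. The tumours are biological triplicates per the labels' protocols, but the sources used here do not say whether each grew in a separate mouse, so p-values measure the spread between these tumours. The procedure was tested on simulated data. The members and lists were chosen with earlier results of these data known. Values in every tumour are given for the member of largest difference and the one of highest level of each role group, for Hspa5, Xbp1, Atf4, Ddit3 and Asns and for members that passed without 1 tumour. Of the other pathway lists the 3 genes with the smallest p are named; Derl2 and Vars were added after their values were seen. Alternatives were other filters, probe set rules, normalizations, variance models, array weights, a block on the replicate number, the muscle list as a covariate, probe sets with the suffix _x_at left out (chosen after seeing the data) and leaving out each tumour.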

Additional observations from a re-analysis of the deposited data

How the results depend on the processing

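Of all genes, 75 passed with every tumour, 42 with the lowest 50% of probe sets left out, 49 with the skeletal muscle list as a covariate and 1680 with array weights, a fit that gave a convergence warning. Leaving out 1 tumour at a time gave 0 (without KD 3) to 412 genes (without the tumour labelled control 2), with 2 without KD 1, 6 without KD 2, 10 without control 3 and 73 without control 1. Of the members, 0 to 1 passed when a tumour was left out and 9 passed with array weights (Dnajb9, Pdia4, Atf5, Trib3, Vldlr, Asns, Psat1, Shmt2 and Gars). The gap between the arm medians was 0.39 with array weights, 0.15 with the stress factors in the second arm and 0.22 to 0.39 without 1 tumour. The ERAD median, -0.04, was 0.041 by the mean of probe sets and 0.038 by the probe set of largest SD, and -0.18 to 0.15 without 1 tumour, where the synthetase median was -0.12 to 0.026 and the amino acid median -0.46 to -0.13 (-0.53 with array weights).

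Members near 0 changed sign. By the mean of probe sets Canx was at 0.041, Edem1 at 0.063, Sel1l at 0.018, Cebpg at 0.031 and Nars at -0.032. By the probe set of largest SD Edem1 was at 0.15, Atf4 at -0.15 and Cebpg at 0.083. By a second quantile normalization Dnajb11 was at -0.0011, Sesn2 at -0.013 and Nars at -0.012. Sesn2 was at -0.0067 by median centring, and Nars at -0.11 with array weights and at -0.016 with the muscle covariate. Without 1 tumour Calr ranged from -0.17 to 0.023, Canx from -0.088 to 0.047, Dnajb11 from -0.038 to 0.10, Manf from -0.11 to 0.035, Herpud1 from -0.01 to 0.25, Edem1 from -0.083 to 0.027, Sel1l from -0.43 to 0.09, Syvn1 from -0.38 to 0.21, Ern1 from -0.005 to 0.08, Sesn2 from -0.048 to 0.077, Cth from -0.26 to 0.48, Nars from -0.07 to 0.15 and Aars from -0.18 to 0.043. The cause of these changes was not tested.

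The deviations of same-numbered tumours from their group means correlated at 0.0055, 0.279 and 0.372. Controls 2 and 3 correlated best with their own number, but control 1 with KD 3 (0.353). With 3 tumours in a group the deviations are tied to each other, so these correlations cannot decide whether the numbers pair the tumours. With the replicate number as a block 107 genes passed and 0 members. No setting moved the median over all genes outside 0.02 to 0.09. Array signal near the dim level limits the lowest members, such as Ern1.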

Other observations

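Wars is known as the synthetase that interferon induces. The 10 measured genes of an interferon list were all positive in Bptf KD tumours (median 0.54), with list means of 9.06 to 9.37 in controls and 9.79 to 9.91 in KD tumours. Wars itself differed by 0.08 on its brightest probe set and by -0.03 to 0.21 over 4 probe sets above the dim level.

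Cth was highest in KD 1 (9.44) and in the tumour labelled control 2 (9.22). These were also the 2 tumours with the highest mean of the skeletal muscle markers (9.01 and 10.97). Control 1, next by muscle markers (8.45), had the lowest Cth (7.86), and control 3, with low muscle markers (6.35), had 8.55. No test was made across the 6 tumours, and the comparison was made after seeing the data.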
